A study of Mus musculus with 6 samples.

Results

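The genes described are the 10 acetylcholine receptor and neuromuscular junction genes Chrna1, Chrnb1, Chrnd, Chrne, Chrng, Musk, Rapsn, Ache, Chrm1 and Chrm3, out of 26814 genes with a row in the deposited count table. They were chosen by name for their role, with their KO and WT values already known, and Chrm3 was selected on its large rise in KO beside muscle genes that fell. Their KO and WT values are therefore given as a description, without a p for any of them. Counts of calls among them are given beside the share over all genes where one was available. RNA-Seq libraries were made from top lip of 3 WT mice and of 3 mice with the targeted Gtf2ird1 tm1Hrd allele, called KO, with 1 library per mouse. All were adult females of the C57BL/6J strain, and the labels name no treatment. The lip was taken as whole tissue, so the libraries hold RNA of epidermis, dermis, glands, nerve endings, vessels and muscle together, and fewer cells of a type and less RNA per cell cannot be told apart.

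The muscle type nicotinic receptor is a channel of several subunits that opens when motor nerve endings release acetylcholine. In adult muscle the epsilon subunit replaces the gamma subunit of fetal and denervated muscle. Agrin from the nerve acts through LRP4 and the kinase MuSK to gather the receptors, rapsyn anchors them, and acetylcholinesterase clears the transmitter. Muscarinic receptors are a separate family coupled to G proteins, and the M3 receptor drives gland secretion and smooth muscle contraction and is also made by keratinocytes.

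The libraries held 20164081 to 29491767 counts on genes. A floor of 3 counts, set here for values near 0, corresponded to 0.0986 to 0.154 CPM, the counts scaled to a common library size. Gtf2ird1 itself, the targeted gene, was at 78.2, 70.2 and 70.7 CPM in WT1, WT2 and WT3 and at 166, 162 and 144 CPM in KO1, KO2 and KO3. It was thus higher in the libraries labelled KO, by 1.11 on the log2 scale (SE 0.13, adjusted p = 0.0018, edgeR quasi-likelihood test), and the directions that follow rest on the labels. Whether the counted reads lie outside the targeted part of the gene cannot be seen from counts per gene, so the value does not check the labels. Of 20 skeletal muscle markers, 18 were expressed highly enough to test, and Myh7 and Tnnc2 had 0 to 5 counts in every library. The 20 markers together took 2.38%, 1.90% and 2.13% of all counts in WT1, WT2 and WT3, against 0.814%, 0.931% and 1.40% in KO1, KO2 and KO3. KO3 therefore stood nearest to WT in muscle RNA, and results that change without it are given both ways.

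Promoter sequences of 7 of the 10 genes were found in the RefSeq table (GRCm38.p6), each running from 250 bases before the start site to 50 bases after it. Capitals mark matches on either strand to the E-box CANNTG, the element of myogenic helix-loop-helix factors, to the N-box CCGGAA, an element of ETS factors at receptor subunit promoters, and to GGATTA, the core that the GTF2IRD1 protein binds. The promoter of Chrna1 (chr2:73580289-73580588, minus strand) is shown for its 3 E-boxes, that of Chrne (chr11:70619145-70619444, minus strand) as the promoter that held all 3 motifs, and that of Chrm3 (chr13:10360754-10361053, minus strand) as the gene that rose.
Chrna1: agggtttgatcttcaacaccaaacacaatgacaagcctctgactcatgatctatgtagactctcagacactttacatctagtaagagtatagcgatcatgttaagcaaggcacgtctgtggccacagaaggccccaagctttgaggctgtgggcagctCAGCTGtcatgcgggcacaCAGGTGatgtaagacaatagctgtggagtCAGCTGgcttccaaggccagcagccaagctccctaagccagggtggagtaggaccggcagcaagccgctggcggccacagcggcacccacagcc
Chrne: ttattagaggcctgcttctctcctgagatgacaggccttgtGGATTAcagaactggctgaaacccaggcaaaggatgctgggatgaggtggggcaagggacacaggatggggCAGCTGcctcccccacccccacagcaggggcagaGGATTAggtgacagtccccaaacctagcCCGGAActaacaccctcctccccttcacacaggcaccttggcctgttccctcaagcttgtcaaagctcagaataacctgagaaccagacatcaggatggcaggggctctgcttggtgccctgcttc
Chrm3: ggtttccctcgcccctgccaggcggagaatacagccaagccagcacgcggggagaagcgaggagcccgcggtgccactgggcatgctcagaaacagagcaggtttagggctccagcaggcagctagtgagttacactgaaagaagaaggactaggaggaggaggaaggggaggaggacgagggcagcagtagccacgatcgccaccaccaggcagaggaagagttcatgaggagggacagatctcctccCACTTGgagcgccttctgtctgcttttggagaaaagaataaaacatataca

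All 7 promoters held at least 1 E-box, as did 72.3% of the 32851 promoters in the table. The Chrna1 matches began 92, 73 and 44 bases before the start site, written as positions -92, -73 and -44. Musk also held 3 E-boxes, at -177, -100 and -68, while the single match of Chrm3 lay across the start site, at -1. An N-box was present in 14.9% of all promoters and, among the 7, in that of Chrne, at -76. GGATTA was present in 7.06% of all promoters and again, among the 7, in that of Chrne, at -209 and -104. The Chrm3 promoter held neither CCGGAA nor GGATTA in this window. A match is a run of letters and not a measured binding site.

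In WT lip the levels of the 10 genes spanned a wide range when expressed per length, as CPM per kb of merged exons. Chrnb1, the beta subunit, was at 6.15 ± 0.438 (SD, n = 3) and Ache, acetylcholinesterase, at 5.99 ± 0.709 CPM per kb, and these 2 overlapped between libraries. Chrne, the adult epsilon subunit, at 4.24 ± 0.714 and Rapsn, the anchoring protein rapsyn, at 4.02 ± 0.890 CPM per kb came next and also overlapped. Chrna1, the alpha subunit that binds acetylcholine, followed at 2.30 ± 0.494, Chrnd, the delta subunit, at 1.5 ± 0.153, and Musk, the agrin-activated kinase, at 0.747 ± 0.172 CPM per kb, each without overlap with its neighbours in this order. The muscarinic receptors Chrm3, at 0.127 ± 0.0381, and Chrm1, at 0.103 ± 0.0366 CPM per kb, overlapped each other and lay below all of these. Chrng, the fetal gamma subunit, was lowest, at 0.0205 ± 0.0118 CPM per kb. In KO lip Chrm3 moved from rank 8 to rank 3, at 3.20 ± 0.233 CPM per kb, below Ache at 4.71 ± 0.576 and Chrnb1 at 3.74 ± 1.08, so that Ache and Chrnb1 also changed places, and the order of the other 7 was the same. With the longest transcript as the length, Ache passed Chrnb1 and Rapsn passed Chrne in WT.

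**Figure D1:**
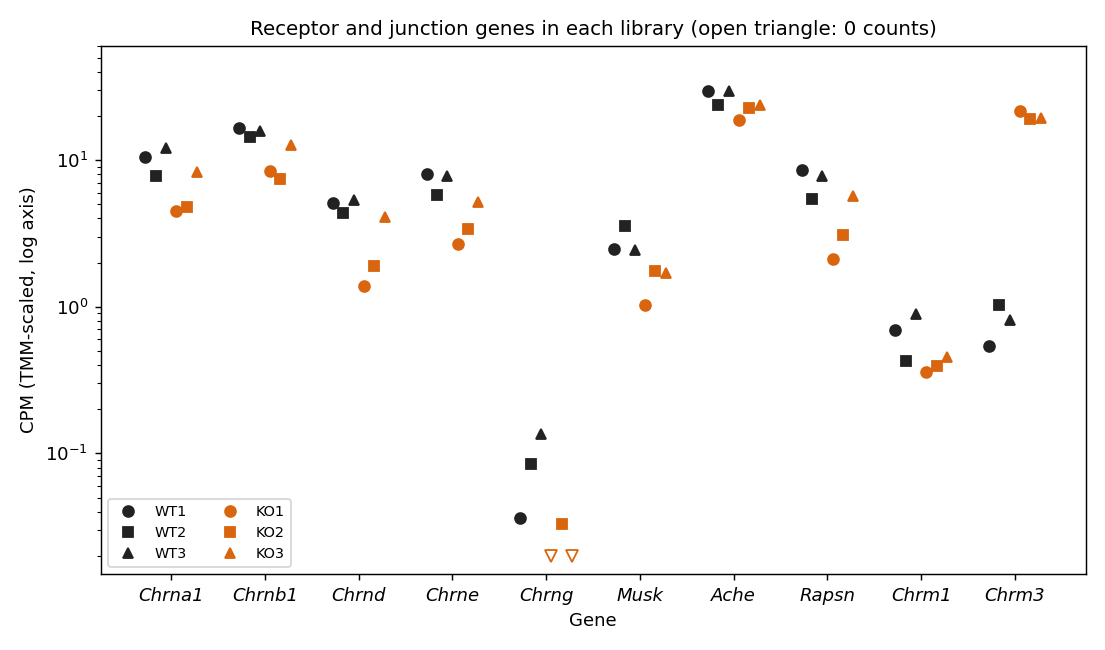
CPM of the 10 receptor and junction genes in each library on a log axis, with WT in black, KO in orange, and open triangles for 0 counts. Chrm3 lies at 19.1 to 21.7 CPM in KO against 0.544 to 1.02 CPM in WT, while the 5 genes Chrnb1, Chrnd, Chrne, Musk and Ache lie lower in every KO library than in any WT library. Chrng does so too on this scale, at only 0 to 3 counts per library.

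In the plot of the 10 genes by library, the mean of each nicotinic and junction gene was lower in KO than in WT, with overlap for Chrna1 and Rapsn and with Chrng near 0 counts. Chrna1 (chr2:73563215-73580338, GRCm38) was at 10.5, 7.74 and 12.0 CPM in WT1, WT2 and WT3 and at 4.50, 4.80 and 8.28 CPM in KO1, KO2 and KO3. KO3 lay above WT2, so the groups overlapped, with means of 10.1 ± 2.17 and 5.86 ± 2.1 CPM (SD, n = 3) and a log2 fold change of -0.78 (SE 0.28). Chrnb1 (chr11:69784036-69795943) was at 16.6, 14.4 and 15.7 CPM in WT and at 8.39, 7.43 and 12.6 CPM in KO. Every KO library was below every WT library, and the log2 fold change was -0.72 (SE 0.22). Chrnd (chr1:87190607-87200070) was at 5.08, 4.38 and 5.35 CPM in WT and at 1.38, 1.91 and 4.12 CPM in KO, again with KO3 nearest to WT. The Chrnd groups did not overlap, and the log2 fold change was -1.0 (SE 0.37).

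Chrne (chr11:70614883-70619216) was at 7.98, 5.78 and 7.74 CPM in WT and at 2.66, 3.39 and 5.17 CPM in KO. All KO libraries were lower, with a log2 fold change of -0.94 (SE 0.27). The gene 4930544D05Rik overlaps Chrne on the opposite strand, and as the strand setting of the counting is not stated, reads of such pairs cannot be told apart. Chrng (chr1:87204657-87212694) had 1, 2 and 3 counts in the WT libraries and 0, 1 and 0 counts in the KO libraries. No fold is given for it, since all 6 values lie at or below the floor of 3 counts. Of the reads on Chrng and Chrne together, Chrng took 6 of 534 in WT, or 1.12% (exact 95% binomial interval 0.413% to 2.43%), and 1 of 269 in KO, or 0.372% (0.00941% to 2.05%). The intervals overlap and cover counting error only, and Chrne held nearly all of these reads in both genotypes.

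The shares of Chrna1, Chrnb1, Chrnd and Chrne in the summed subunit RNA shifted little compared with that sum. They are RNA shares in whole lip and do not measure the make-up of the receptor. Of the summed level of the 5 subunit genes per kb, Chrnb1 took 43.5% ± 2.90 in WT and 47.1% ± 4.56 in KO, and Chrne took 29.7% ± 1.57 and 27.5% ± 2.71 (SD, n = 3). Chrna1 took 16.1% ± 1.84 and 16.5% ± 0.351, and Chrnd took 10.6% ± 0.398 and 8.87% ± 2.29. For each of these 4 genes the difference between the means was within the range that the libraries of a genotype spanned. Chrnd had the widest spread of these 4 among KO libraries relative to its share, from 6.63% in KO1 to 11.2% in KO3.

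The genes that assemble and serve the junction also lay lower in KO. Musk (chr4:58285960-58374303) was at 2.47, 3.57 and 2.43 CPM in WT and at 1.02, 1.74 and 1.69 CPM in KO. The groups did not overlap, and the log2 fold change was -0.91 (SE 0.29). Rapsn (chr2:91035620-91045729) was at 8.53, 5.44 and 7.74 CPM in WT and at 2.1, 3.06 and 5.72 CPM in KO. KO3 lay above WT2, so the Rapsn groups overlapped, at a log2 fold change of -1.0 (SE 0.36), and Gm13778 overlaps it on the opposite strand. Ache (chr5:137287519-137294466) was at 29.5, 23.9 and 29.6 CPM in WT and at 18.8, 22.7 and 23.9 CPM in KO. Here the highest KO library fell just below the lowest WT library, and the log2 fold change of -0.35 (SE 0.16) was nearer to 0 than that of any other nicotinic or junction gene that was fitted. Gm42456 overlaps Ache on the opposite strand and Mir8116 on the same strand.

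Chrm1 (chr19:8663789-8683587), the M1 muscarinic receptor known from neurons and glands, had 19, 10 and 20 counts in WT and 7, 12 and 10 counts in KO. It was at 0.425 to 0.899 CPM in WT and at 0.358 to 0.457 CPM in KO, with overlap, and was too low to be fitted. Chrm3 (chr13:9875486-10360847) had 15, 24 and 18 counts in WT and 424, 580 and 422 counts in KO. This corresponds to 0.544, 1.02 and 0.810 CPM in WT1, WT2 and WT3 and to 21.7, 19.1 and 19.3 CPM in KO1, KO2 and KO3. The KO mean stood 25.3-fold above the WT mean of 0.791 ± 0.238 CPM (SD, n = 3), with a log2 fold change of 4.66 (SE 0.25). KO3, the KO library with the most muscle RNA, was at the level of KO2 for Chrm3, unlike its position for the nicotinic subunits. Chrm3 passed the filter on low values through its KO libraries, since a single WT library reached 1 CPM. Several non-coding genes overlap its long locus on both strands, of which Gm26861 had 0 to 3 counts per library.

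Of the 10 genes, 8 were expressed highly enough to be fitted. At an adjusted p under 0.05, where 6.47% of the 15009 fitted genes were called (4.38% higher and 2.09% lower in KO), 1 of the 8, Chrm3, was called higher and 0 were called lower. At an unadjusted p under 0.05, where 16.0% of all genes were lower, 6 of the 8 were lower, and by edgeR's exact test, where 7.15% of all genes were lower, the 5 genes Chrnb1, Chrnd, Chrne, Musk and Rapsn were. DESeq2 called Chrnb1 and Chrne lower, a count for which no share over all genes is given. Without KO3, where 16.2% of all genes were called lower, these 5 and Chrna1 were lower. Non-overlap with KO above WT held for 13.5% of all genes and for 1 of the 8, and non-overlap with KO below WT for 18.1% of all genes and for 5 of the 8. Over these 8 genes the log2 fold change had a median of -0.84, against -0.02 for all fitted genes. As the rule that chose the genes used this contrast, nothing is read from these counts.

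**Figure D2:**
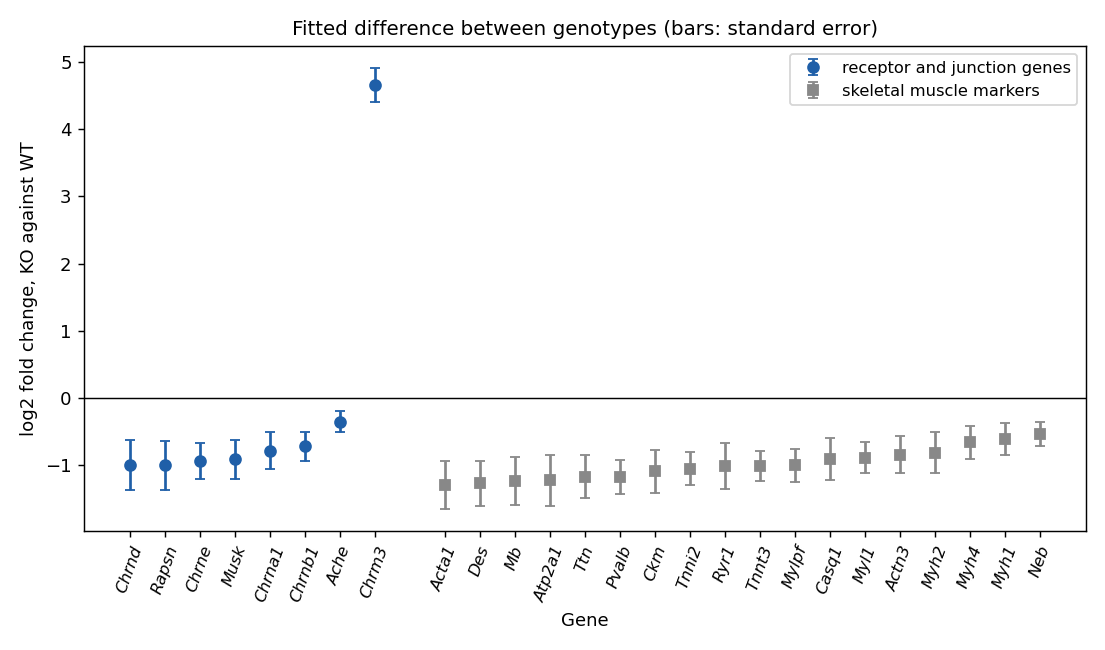
Log2 fold change of KO against WT with its standard error for the 8 fitted receptor and junction genes (blue) and 18 skeletal muscle markers (grey). The markers lie between -1.29 and -0.54, the range that also holds all the blue points except Ache at -0.35 and Chrm3 at 4.66.

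The plot of fold changes sets the skeletal muscle markers beside these genes. All 18 fitted markers had a negative log2 fold change, with a median of -1.01, from -1.29 to -0.54, and in 17 of them no KO library reached a WT library. Pvalb, a calcium buffer of fast fibres, at -1.17 (SE 0.25, adjusted p = 0.0343), and the fast troponins Tnnt3, at -1.01 (SE 0.22, adjusted p = 0.0397), and Tnni2, at -1.05 (SE 0.25, adjusted p = 0.0484), were the 3 that passed the test. They were called lower without KO3 and lost the call when any other library was left out. All 18 were lower at an unadjusted p under 0.05, beside 16.0% of all genes. By the exact test 15 were lower, beside 7.15% of all genes, and by DESeq2 13, for which no share over all genes is given. Ttn, at -1.17 (adjusted p = 0.0685), and Myh4, at -0.66 (adjusted p = 0.129), were the highest-expressed of those that did not pass. The summed level of the markers was 17800 to 24000 CPM in WT and 8400 to 14200 CPM in KO. What part the lower muscle signal had in the lower receptor levels was not tested.

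The counts of each gene were also set against the summed counts of the 20 muscle markers in the same library. On this scale Chrne was at 0.333, 0.325 and 0.345 counts per 1000 muscle counts in WT and at 0.317, 0.375 and 0.363 in KO, so that the genotypes overlapped and the log2 difference was 0.07. Chrna1 was at 0.435 to 0.536 in WT and 0.532 to 0.581 in KO, Chrnd at 0.212 to 0.246 and 0.165 to 0.289, Rapsn at 0.306 to 0.356 and 0.250 to 0.401, and Musk at 0.103 to 0.201 and 0.119 to 0.193 counts per 1000 muscle counts. For these 5 genes the log2 difference lay between -0.10 and 0.23, and the groups overlapped in each. With 1 library left out, Musk ranged from -0.12 without KO2 to 0.42 without WT2, Chrnd from -0.32 without KO3 to 0.09 without KO1, and Rapsn from -0.20 without KO3 to 0.14 without KO1. Chrnb1 was slightly higher in every KO library, at 0.823 to 0.999 against 0.693 to 0.811 in WT, a log2 difference of 0.30.

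**Figure D3:**
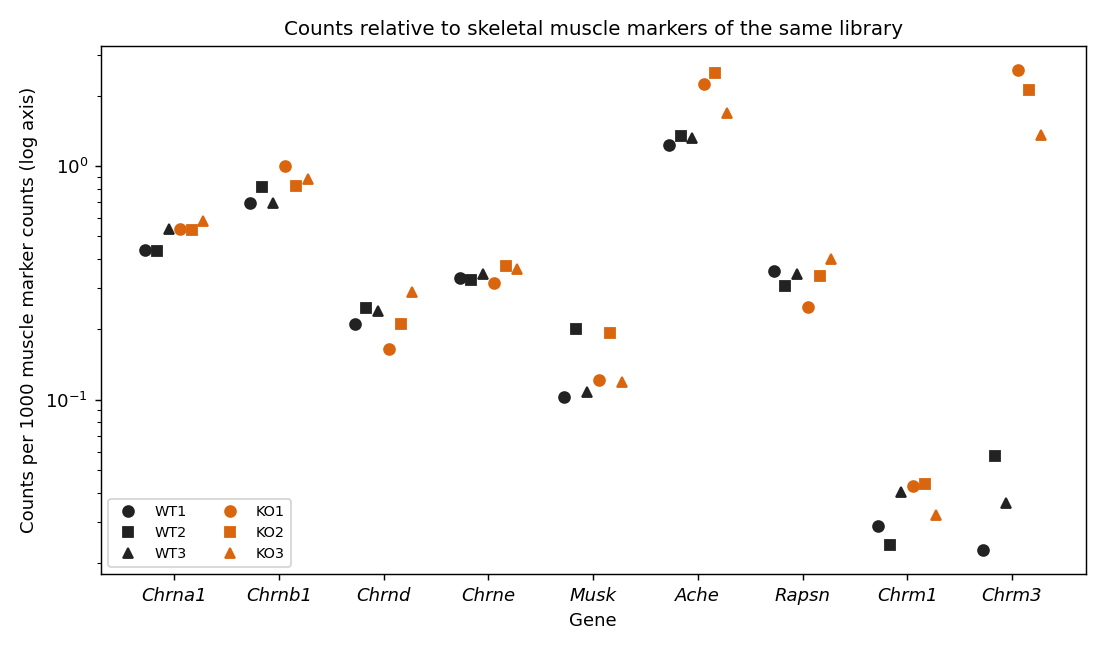
Counts of 9 of the genes per 1000 counts of 20 skeletal muscle markers in the same library, on a log axis, with WT in black and KO in orange. Chrna1, Chrnd, Chrne, Musk, Rapsn and Chrm1 overlap between genotypes, whereas Chrnb1, Ache and Chrm3 lie higher in every KO library.

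Ache stood apart from the other junction genes in the plot of muscle-scaled counts. It was at 1.23, 1.34 and 1.32 counts per 1000 muscle counts in WT and at 2.24, 2.51 and 1.68 in KO, with a log2 difference of 0.70. All KO libraries were higher, although on the CPM scale all were lower. Ache is made by nerve, blood cells and other tissues as well as muscle, and the lip samples were not separated by cell type. Chrm3 was at 0.0227 to 0.0574 counts per 1000 muscle counts in WT and at 1.36 to 2.58 in KO, a log2 difference of 5.75. With Ckm, the muscle creatine kinase, as the only reference, the log2 difference was 0.82 for Ache, 0.41 for Chrnb1, 0.34 for Chrna1, 0.22 for Musk, 0.18 for Chrne, 0.06 for Rapsn, 0.01 for Chrnd and 5.87 for Chrm3. For Chrne this was a move of more than its spread between replicates.

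Other genes of the junction and of acetylcholine signalling were compared by list in the same edgeR quasi-likelihood fit, with Benjamini-Hochberg adjustment over all genes. Of the 83 genes tested, 3 were higher and 2 lower in KO, against the 4.38% and 2.09% called over all genes, and without KO3 the counts were 9 and 19, against 16.9% and 16.2%. In the lists that follow, no share over all genes is given for DESeq2 or for counts at an unadjusted p in both directions. Among 10 genes of agrin and MuSK signalling, 0 passed (3 at an unadjusted p under 0.05, 1 lower by the exact test, and 1 higher and 1 lower by DESeq2), with a median log2 fold change of -0.18. Lrp4, the agrin receptor that pairs with MuSK, was at 104, 150 and 124 CPM in WT and at 87.7, 82.8 and 71.7 CPM in KO, without overlap, at -0.65 (SE 0.17, adjusted p = 0.059). Agrn, which encodes agrin and is also made by epithelia, was at 258 ± 15.7 CPM in WT and 231 ± 36.9 CPM in KO (adjusted p = 0.496), and the adaptor Crk was at 110 and 122 CPM (adjusted p = 0.572).

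The postsynaptic scaffold list, the dystrophin and utrophin complex and its partners, had 0 of 11 genes called (4 at an unadjusted p under 0.05, 1 lower by the exact test and 2 lower by DESeq2), with a median of -0.47. Plec, the linker plectin, was at -0.33 (adjusted p = 0.21) and Dag1, dystroglycan, at -0.47 (adjusted p = 0.188). For the synaptic cleft and basal lamina, 0 of 9 genes were called (3 at an unadjusted p under 0.05, 1 lower by the exact test and 0 by DESeq2), with a median of -0.39. The laminin genes Lama5, at -0.34 (adjusted p = 0.199), and Lamb2, at -0.48 (adjusted p = 0.138), were the highest-expressed of this list. Neuregulin and its ErbB receptors with ETS factors, which act on subunit promoters in muscle, had 0 of 8 called (3 at an unadjusted p under 0.05, and 0 by the exact test or DESeq2) and a median of 0.24. Erbb2 was at 0.21 (adjusted p = 0.325) and Erbb3, also a Schwann cell receptor, at 0.28 (adjusted p = 0.189).

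Genes that respond to loss of the nerve in muscle moved in both directions. Of the 10 fitted genes of this list, 1 rose and 1 fell (7 at an unadjusted p under 0.05), with a median of -0.60. Hdac9, a class II histone deacetylase also made outside muscle, was at 6.02, 4.46 and 5.71 CPM in WT and at 26.1, 37.0 and 17.7 CPM in KO. It rose by 2.32 on the log2 scale (SE 0.28, adjusted p = 0.00251) and was called in all 6 fits that left out 1 library. Ncam1, an adhesion molecule of muscle, nerve and Schwann cells, was at 11.5, 10.8 and 10.5 CPM in WT and at 4.86, 4.41 and 7.59 CPM in KO. It fell, with a log2 fold change of -0.96 (SE 0.23, adjusted p = 0.0482), and kept this call in the fit without KO3 but in none of the 5 others that left out 1 library. Hdac4, at 0.06 (adjusted p = 0.771), and Fbxo32, an atrophy ubiquitin ligase at -0.40 (adjusted p = 0.0789), did not pass.

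The chaperones and Ly6 proteins that act on nicotinic receptors held 3 of the 5 called genes. Ric3, an endoplasmic reticulum chaperone that helps nicotinic receptors fold and assemble, was at 3.52, 3.44 and 2.20 CPM in WT1, WT2 and WT3 and at 78.9, 79.3 and 36.9 CPM in KO1, KO2 and KO3. It rose by 4.41 on the log2 scale (SE 0.35, adjusted p = 0.000252), or 21.3-fold between the means of 3.06 ± 0.739 and 65.0 ± 24.3 CPM. KO3 was lower than the other KO libraries and still far above WT. Lypd6, a Ly6 protein tied to nicotinic receptors and Wnt signalling, was at 10.9, 10.8 and 9.08 CPM in WT and at 2.92, 4.6 and 3.38 CPM in KO. It fell, with a log2 fold change of -1.49 (SE 0.22, adjusted p = 0.00634), and like Ric3 was called in all 6 fits that left out 1 library. Its paralogue Lypd6b was at 22.9, 25.6 and 24.3 CPM in WT and at 45.6, 40.3 and 32.0 CPM in KO. Lypd6b rose by 0.69 on the log2 scale (SE 0.16, adjusted p = 0.0458), a call kept without KO3 and lost without any other library. The other 4 fitted genes of this list did not pass, among them Lynx1, at -0.58 (adjusted p = 0.192), and Slurp1, at -0.06 (adjusted p = 0.866).

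**Figure D4:**
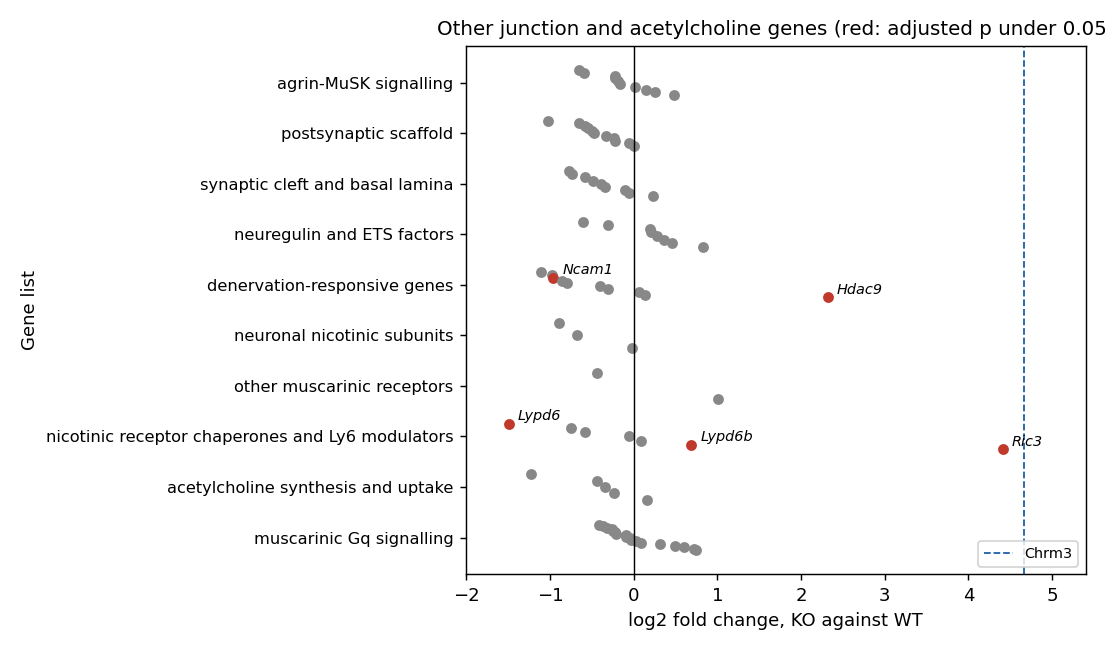
Log2 fold change of KO against WT for the tested genes of 10 junction and acetylcholine lists, 1 list per line, with genes at an adjusted p under 0.05 in red and the value of Chrm3 as a dashed line. The red points are Ric3 at 4.41, Hdac9 at 2.32, Lypd6b at 0.69, Ncam1 at -0.96 and Lypd6 at -1.49, and Ric3 lies next to the line at 4.66.

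As the plot by list shows, Ric3 was the list gene whose change lay nearest to that of Chrm3, whereas the remaining receptor lists held no called gene. Of 11 neuronal nicotinic subunit genes, 3 were expressed highly enough to test and 0 passed (2 at an unadjusted p under 0.05, and 0 by the exact test or DESeq2). Chrna10 was at 3.93 ± 0.880 CPM in WT and 2.12 CPM in KO (log2 fold change -0.89, adjusted p = 0.123), and Chrnb2 at 2.02 and 2.0 CPM (adjusted p = 0.96). Of the 3 muscarinic receptors besides Chrm1 and Chrm3, 2 were tested and 0 passed (1 at an unadjusted p under 0.05, 1 higher by the exact test and 0 by DESeq2). Chrm4, coupled to the inhibitory G protein, was at 1.13, 1.74 and 0.765 CPM in WT and at 2.61, 2.89 and 1.83 CPM in KO, without overlap, at a log2 fold change of 1.01 (SE 0.34, adjusted p = 0.1). Chrm2, of the same class, was at 2.92 and 2.14 CPM (log2 fold change -0.44, adjusted p = 0.389).

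The genes that make acetylcholine and those that carry the M3 signal gave no called gene either. For acetylcholine synthesis and uptake, 0 of 5 fitted genes were called (1 at an unadjusted p under 0.05, and 0 by the exact test or DESeq2), with Slc44a2 at -0.23 (adjusted p = 0.271) and Slc44a1 at 0.16 (adjusted p = 0.467), both choline transporters made in many tissues. The median log2 fold change of this list was -0.34, with 4 genes negative and 1 positive. Slc5a7 was lowest, at -1.23 (SE 0.53, adjusted p = 0.168), with overlap between the genotypes. Of 18 genes of the Gq pathway that carries the M3 signal, 0 were called (5 at an unadjusted p under 0.05, and 2 higher by the exact test and by DESeq2), and their median log2 fold change was -0.06. Itpr3, a calcium channel of the endoplasmic reticulum, was at 268 ± 13.9 CPM in WT and 273 CPM in KO (adjusted p = 0.91), and Grk2, a receptor kinase, at 140 ± 13.4 and 136 CPM (adjusted p = 0.833). The Gq genes ranged from -0.41 to 0.75, against 4.66 for Chrm3.

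Markers of other lip cell types were set beside these values, and over all 7 marker lists, skeletal muscle included, 2 of 59 genes rose and 5 fell, beside 4.38% and 2.09% of all genes. Without KO3 the marker counts were 6 and 34, beside 16.9% and 16.2% of all genes. Of 12 salivary and mucous gland markers, 4 were tested and 2 rose. Aqp5, the water channel of gland cells, was at 12.0, 8.37 and 11.4 CPM in WT and at 85.8, 67.6 and 52.6 CPM in KO, and rose by 2.69 on the log2 scale (SE 0.23, adjusted p = 0.000349). Lpo, lactoperoxidase of gland secretions, was at 0.630 to 1.05 CPM in WT and at 31.0, 5.79 and 3.80 CPM in KO, with a log2 fold change of 3.97 (SE 0.83, adjusted p = 0.0316), a call lost without any single WT library. Bpifa2, a saliva protein gene, had 2 counts in KO3 and 0 in the other 5 libraries, and the mucin genes Muc5b, which was lower in every KO library, and Muc19 had 4 to 23 counts. Amy1, an amylase, was at -0.01 (adjusted p = 0.983), and 4 of the 12 markers had no row in the count table under the symbols used. The summed gland markers, mostly Aqp5 and Slc12a2, were at 88.9 to 109 CPM in WT and 149 to 232 CPM in KO. The part of gland RNA in the higher Chrm3 level was not tested.

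Chrm3 is also known in smooth muscle. Of 8 smooth muscle markers, 2 were called lower, and the log2 fold changes ran from -1.08 to -0.05, with Myh11, smooth muscle myosin, at -0.05 (adjusted p = 0.839). The 2 were Synpo2, at -1.08 (adjusted p = 0.0331), and Tagln, at -0.59 (adjusted p = 0.0437), both calls being kept without KO3 and lost without any other library. The summed level was 394 to 426 CPM in WT and 220 to 321 CPM in KO. For 10 keratinocyte markers, 0 were called (5 at an unadjusted p under 0.05, and 3 higher by the exact test and by DESeq2), with sums of 28400 to 33400 CPM in WT and 40100 to 54400 CPM in KO and with Krt1, a keratin of the upper epidermal layers, at 1.18 (adjusted p = 0.0584). These sums were carried by Krt1 and Krt10, and the list had a median of 0.24. Krt15, a basal keratin, at -0.36 (adjusted p = 0.166) and Col17a1 at -0.34 (adjusted p = 0.201) were lower in every KO library. Itga6, at 0.34 (adjusted p = 0.127), was higher in every KO library. Krt14, at 0.15 (adjusted p = 0.631), and Krt5, at -0.04 (adjusted p = 0.918), overlapped between the genotypes. Schwann cell markers had 0 of 8 called (5 at an unadjusted p under 0.05, 2 lower by the exact test and 1 by DESeq2) and a median of -0.65. Neuronal markers had 0 of 3 called (2 at an unadjusted p under 0.05, 1 lower by the exact test and 0 by DESeq2), with a median of -0.52. Endothelial markers had 0 of 8 called (2 at an unadjusted p under 0.05, and 0 by the exact test or DESeq2), with a median of -0.36. What part these cell types had in the levels of the receptor genes was not tested.

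The genes around the receptor loci were examined because neighbours can share a change. Of 14 annotated genes within 1 Mb of Chrm3 that had a row, 8 were tested and 0 were called (2 at an unadjusted p under 0.05, and 2 higher by the exact test and by DESeq2), all on the side of lower coordinates. Gm24187, the nearest tested gene, at 40961 bp from the locus, was at 66.1, 38.4 and 129 CPM in WT and at 62.6, 1.48 and 102 CPM in KO, a log2 fold change of -0.49 (SE 1.04, adjusted p = 0.775). Zmynd11, the next, was at 0.11 (adjusted p = 0.679) and Dip2c at 0.06 (adjusted p = 0.796), while Gtpbp4, over 800 kb away, was at 0.98 (adjusted p = 0.059). On the side of higher coordinates no gene was expressed highly enough to test.

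**Figure D5:**
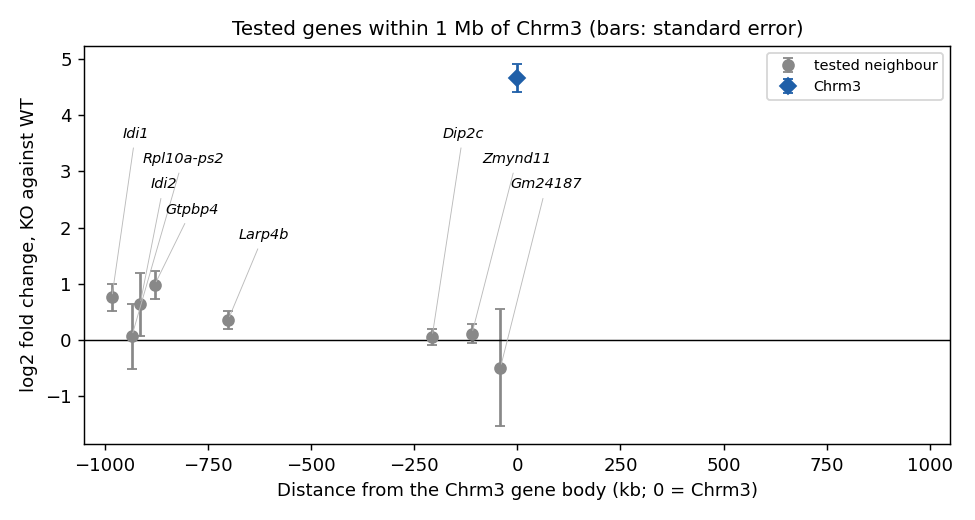
Log2 fold change of KO against WT with its standard error for Chrm3 (blue) and the 8 tested genes within 1 Mb (grey), by distance from the Chrm3 gene body in kb. The neighbours lie between -0.49 and 0.98, all on the side of lower coordinates, against 4.66 for Chrm3.

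The contrast in the plot of the Chrm3 locus was not a feature of every member. Within 1 Mb of any of the 10 genes, 255 other genes were tested, of which 14 were higher and 6 lower in KO, near the 4.38% and 2.09% called over all genes. Without KO3 the counts were 36 and 52, beside 16.9% and 16.2% over all genes. Around Musk, 3 of 11 tested genes were higher, and AI481877, at 669450 bp, was at 1.67, 3.15 and 2.56 CPM in WT and at 226, 216 and 67.5 CPM in KO (log2 fold change 6.11, SE 0.53, adjusted p = 0.000398), the opposite direction to Musk. Around Chrnb1, 4 of 92 tested genes were higher and 2 lower. Zmynd15, at 1.27 (adjusted p = 0.00999), and Cxcl16, at 0.99 (adjusted p = 0.0108), had the lowest p of these and rose, opposite to Chrnb1. Close to Chrnb1, at 27179 bp, lay Nlgn2, which encodes a synaptic adhesion protein. Nlgn2 was at 59.9, 59.8 and 58.2 CPM in WT and at 38.8, 42.6 and 38.2 CPM in KO. It was called lower, with a log2 fold change of -0.57 (SE 0.12, adjusted p = 0.0323). This call was kept without KO3 and lost without any other library, by library size alone, without the filter and with a replicate block. Around Chrna1, 0 of 9 tested genes were called (3 at an unadjusted p under 0.05, 0 by the exact test and 1 higher by DESeq2), and around Chrm1, 0 of 25 (7 at an unadjusted p under 0.05, 1 lower by the exact test and 0 by DESeq2).

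By Pearson correlation of log2 CPM over the 6 libraries, the pattern of Chrm3 was most like those of BC026585, Robo1 and Arg2, with r = 0.9988 for each. Robo1, a guidance receptor, was at 66.2, 72.7 and 74.8 CPM in WT and at 244, 224 and 226 CPM in KO, and Arg2, a mitochondrial arginase, was at 7.08 to 7.99 CPM in WT and 29.1 to 29.7 CPM in KO. The pattern of Chrna1 was most like those of Ndufa2 (r = 0.9988), Igfbp7 (r = 0.9987) and Selm (r = 0.9979). Igfbp7 was at 166, 120 and 181 CPM in WT and at 74.8, 78.7 and 133 CPM in KO, and so shared with Chrna1 a low WT2 and a high KO3. With 6 libraries in 2 genotypes such values are common, and 420 genes reached an r of at least 0.95 with Chrm3 and 968 with Chrna1.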

How the data were processed

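RNA-Seq libraries of lip from 3 WT and 3 KO mice were used, grouped by their labels. Reads were aligned by the authors to GRCm38 (TopHat2 2.0.8, Bowtie2 2.1.0), and they deposited whole-number counts of reads that HTSeq assigned uniquely to each gene, without normalization. How HTSeq treated strand and ambiguous reads is not given in the sources used here. The number of columns left unused was 0.

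Genes that reached 1 CPM in 3 or more libraries, 15009 of 26814, were scaled by TMM and compared with edgeR 4.0.16 (glmQLFit with legacy=FALSE, glmQLFTest, R 4.3.3), with Benjamini-Hochberg adjustment over all genes and a threshold of 0.05. CPM values use the TMM-scaled library sizes. The study's methods used edgeR's exact test, which was an alternative here, as were DESeq2 1.42.0, other scalings and filters, a replicate block and leaving out each library. Tested on simulated data for this comparison, in which 200 of 15009 genes were changed, the fit recovered 51% at 2-fold and 98% at 4-fold, and 6.29% of calls were false. In the real data 971 genes were called, and no simulated library was made to stand apart as KO3 did. These rates need not hold for the real comparison. An offset of 0.5 CPM was added before log2 for the correlations.

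The members and lists were chosen with earlier results of these data known. Genes named singly are the 10 members, from each list up to 4 called genes per direction by lowest p and up to 2 others of highest mean CPM, called or nearest neighbours, the 3 genes most like Chrm3 and Chrna1, and Gtf2ird1. Lrp4, Slc5a7, Zmynd11, Dip2c, Gtpbp4, Myh7, Tnnc2, Bpifa2, Muc5b, Muc19, Amy1, Krt5, Krt14, Krt15, Itga6, Col17a1, Myh11 and the overlapping genes were named outside this rule, after their values were seen. Positions and lengths are from GENCODE vM21, in which 24858 symbols were found, and figures were drawn with matplotlib 3.10.9. Promoters of Chrnd, Rapsn and Chrm1 and protein sequences were not analysed here.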

Additional observations from a re-analysis of the deposited data

How the results depend on the processing

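The counts of called genes depended on the test and on KO3 more than on scaling or filtering. By the exact test of edgeR, the Wald test of DESeq2 and an adjusted p under 0.1, the called genes were 6, 3 and 4 of the receptor and junction genes (1 in the quasi-likelihood fit), 13, 13 and 15 of the other junction and acetylcholine genes (5), 25, 21 and 19 of the cell type markers (7), and 41, 44 and 43 of the neighbouring genes (20). For these settings no share over all genes in both directions together is given. With 1 library left out, the counts ranged from 1 to 7, 3 to 28, 1 to 40 and 5 to 88 in the same order, each highest without KO3. Requiring 10 or more counts per library left 3 junction and acetylcholine genes called. With a replicate block, 3 junction and acetylcholine genes, 12 neighbours and an unchanged number of receptor genes were called. The labels give only a replicate number. Deviations of same-numbered libraries correlated at -0.192, 0.293 and 0.312, and those of WT and KO libraries of unlike number at -0.504 to 0.407. With so few libraries these values cannot show whether the numbers mark a shared batch.

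No log2 fold change of a receptor or junction gene reversed under the 8 alternatives or the 6 fits without a library. Chrm3 ranged from 4.44 to 4.95 and Ache from -0.41 to -0.19. Chrnd and Rapsn ranged most among the rest, from -1.56 and -1.47 without KO3 to -0.67 for both without KO1. The WT levels of 4 of the 10 genes moved by more than their SD with transcript length in place of merged exons. Depth limited Chrng, at up to 3 counts, and Chrm1, at up to 20. The cause of the dependence on KO3 was not tested.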
